A study of Mus musculus with 12 samples.

Results

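The Siglec family genes of mouse melanoma tumours were described across all 12 arrays of a galectin-3 experiment. Members were taken by name: every measured mouse gene whose symbol starts with Siglec, plus Cd22, Cd33 and Mag, which belong to the same family. They numbered 9 of the 909 genes that could be named, read by 11 of 1246 probe sets, and each gene was described by the probe set with the highest mean level.

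Tumours came from mice injected with 1 of 2 melanoma lines, which the labels call galectin-3 expressing (Tm1N3) and galectin-3 silenced (Tm1G3). The 4 groups of 3 arrays each were Tm1N3 tumours of Gal3 -/- hosts, Tm1N3 tumours of wild-type hosts, Tm1G3 tumours of Gal3 -/- hosts and Tm1G3 tumours of wild-type hosts. Galectin-3 is a lectin that binds galactose-containing glycans, encoded by Lgals3. The series text describes a melanoma line that silenced the galectin-3 gene and was given a galectin-3 coding plasmid, with growth in syngeneic hosts, so every host had an immune system of its own. That text does not name the clones, so which line was expressing and which silenced, and with it the meaning of each line difference, rests on the sample labels alone. Age, sex and the number of clones behind each line are unknown from the labels. Each array held RNA of a whole tumour, host and tumour cells together, so fewer cells of a type and less RNA per cell cannot be told apart in any value. Whether replicates were separate animals is left unsaid by the labels, though every sample title starts with a different number of unstated meaning. Every p-value therefore reflects the spread of these arrays alone, which may be technical or between animals.

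Siglecs are cell surface lectins of the immunoglobulin superfamily that bind sialic acid, the sugar that caps many glycans of vertebrate cells. Many carry inhibitory tyrosine motifs in their tails and recruit phosphatases that dampen activation of leukocytes, while others pair with activating adaptor proteins. Sialic acid on tumour cells can act as a ligand for Siglecs of infiltrating leukocytes. Siglec1, Cd22, Mag and Siglec15 are well conserved between mammals, and Cd33, Siglece, Siglecf, Siglecg and Siglech belong to the faster evolving Cd33-related group.

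All values are log2 levels as deposited, normalised by RMA, per the submitters' processing notes. Array medians spanned 0.0945, and correlations between arrays across probe sets ran from 0.976 to 0.998. Precision is limited by 3 arrays a group. Lgals3 had mean log2 levels of 9.86 in Tm1N3 and 9.31 in Tm1G3 tumours of knockout hosts, and of 9.97 in Tm1N3 and 9.61 in Tm1G3 tumours of wild-type hosts. Neither line difference passed a two-sided exact permutation test (p = 0.3 in each, where 0.1 is the smallest p the design allows), nor did the host differences (exact p = 0.8 in Tm1N3 and 0.4 in Tm1G3 tumours). By its level, Lgals3 was among the brighter genes in tumours of the line labelled silenced too, also in knockout hosts. Over all arrays its mean stood at the 90.4 percentile of probe sets. The Lgals3 levels of the lines overlapped between arrays in both hosts, so they do not settle the line labels. For the hosts, the sources used here do not place the probe set inside or outside the deleted sequence, so its level is no check of the knockout. Of 10 melanocyte and melanoma markers only Kit and Mcam were measured, so the pigment cell identity of the tissue could not be checked either.

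Promoter windows of 300 bases ran from 250 bases before to 50 bases after a RefSeq gene start in build GRCm38.p6. They were searched for 7 of the 9 genes. Siglec1 had no window in the source, and windows on the chromosome of Siglec15 were left out before the search. All family counts below cover the other 7 genes alone. Siglecf and Siglech are shown because the levels of their brightest probe sets followed the leading pattern among the arrays described below, and Siglece because its level did not. Each is written 5′ to 3′ on the strand of its gene, and capitals mark GAGGAAG, a purine-rich box of the kind bound by the myeloid and B cell factor PU.1, on either strand.
Siglecf: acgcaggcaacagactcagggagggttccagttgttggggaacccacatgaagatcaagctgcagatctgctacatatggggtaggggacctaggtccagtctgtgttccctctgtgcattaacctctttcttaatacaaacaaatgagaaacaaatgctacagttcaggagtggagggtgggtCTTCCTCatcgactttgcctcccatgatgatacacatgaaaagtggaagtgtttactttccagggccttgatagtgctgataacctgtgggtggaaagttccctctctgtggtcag
Siglech: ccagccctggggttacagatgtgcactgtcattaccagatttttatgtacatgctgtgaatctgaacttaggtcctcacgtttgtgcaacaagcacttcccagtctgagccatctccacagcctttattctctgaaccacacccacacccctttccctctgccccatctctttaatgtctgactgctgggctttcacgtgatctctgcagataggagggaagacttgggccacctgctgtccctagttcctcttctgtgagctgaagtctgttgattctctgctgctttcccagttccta
Siglece: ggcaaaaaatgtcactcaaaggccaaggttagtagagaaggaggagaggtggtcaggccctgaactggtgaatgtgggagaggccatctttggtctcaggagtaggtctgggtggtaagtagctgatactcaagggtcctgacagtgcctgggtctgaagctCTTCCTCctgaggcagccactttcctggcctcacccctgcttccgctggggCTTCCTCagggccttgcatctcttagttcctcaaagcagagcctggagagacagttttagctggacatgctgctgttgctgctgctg
The windows lie at chr7:43351091-43351390 on the plus strand for Siglecf, at chr7:55767934-55768233 on the plus strand for Siglech and at chr7:43660112-43660411 on the minus strand for Siglece. The Siglecf match began 66 bases before the start, and the Siglece matches 88 and 37 bases before it. GAGGAAG occurred in windows of 5 of the 7 genes (Cd33, Mag, Siglece, Siglecf and Siglecg). Some genes have several starts, with windows that can overlap, and by window it occurred in 6 of 10 family windows, beside 13.6% of all 32851 windows. In all, 11 motifs were searched on both strands. CACCC occurred in 10 of 10 family windows, beside 57.5% of all windows. TTCNNNGAA occurred in 4 of 10, those of Mag and Siglech, beside 8.3% of all. CACGTG occurred in 1 of 10, that of Siglech, beside 7.15% of all. By gene TTCNNNGAA occurred in 2 of 7. For GAGGAAG and TTCNNNGAA, overlapping Mag windows held the same site, which counts in each of them. No match in the 10 family windows was found for AGGAAGT, which overlaps GAGGAAG in all but its end base, for the AP-1 type site TGACTCA, for the TATA box TATAAA, for the Sp type box GGGCGG, for the octamer ATTTGCAT, for the E-box CAGCTG or for the C/EBP type site TTGCGCAA, which occurred in between 0.183% and 35.7% of all windows. A match is a description of letters, and the arrays measured no binding.

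Siglec1 encodes sialoadhesin, a receptor of macrophages that lacks an inhibitory motif and captures sialylated cells and particles. Its log2 level was 5.78, 5.63 and 6.63 in Tm1N3 tumours of knockout hosts and 6.09, 5.92 and 6.51 in Tm1N3 tumours of wild-type hosts. In Tm1G3 tumours it was 6.20, 6.03 and 6.11 in knockout hosts and 6.50, 5.85 and 6.34 in wild-type hosts. The lowest and the highest of the 12 arrays, 2.00-fold apart, were replicates of the same group, Tm1N3 tumours of knockout hosts, and all groups overlapped. Group means were 6.01 ± 0.54 in Tm1N3 tumours of knockout hosts, 6.18 ± 0.30 in Tm1N3 tumours of wild-type hosts, 6.11 ± 0.09 in Tm1G3 tumours of knockout hosts and 6.23 ± 0.34 in Tm1G3 tumours of wild-type hosts (SD, n = 3 each). In order of mean these ran from Tm1G3 in wild-type hosts, the highest, through Tm1N3 in wild-type and Tm1G3 in knockout hosts to Tm1N3 in knockout hosts, and no neighbours in that order differed beyond their spread.

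Cd22 encodes an inhibitory co-receptor of the B cell antigen receptor. Its log2 level was 5.83, 5.71 and 5.94 in Tm1N3 tumours of knockout hosts and 5.91, 5.81 and 5.85 in Tm1N3 tumours of wild-type hosts. It was 5.81, 5.84 and 5.84 in Tm1G3 tumours of knockout hosts and 5.70, 5.85 and 6.11 in Tm1G3 tumours of wild-type hosts. The lowest and the highest array both belonged to Tm1G3 tumours of wild-type hosts, whose range of 0.41 spanned every other array.

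Mag encodes myelin-associated glycoprotein, a Siglec of myelinating glia. Its log2 level was 5.51, 5.28 and 5.38 in Tm1N3 tumours of knockout hosts and 5.45, 5.57 and 5.68 in Tm1N3 tumours of wild-type hosts. In Tm1G3 tumours it was 5.49, 5.47 and 5.54 in knockout hosts and 5.52, 5.55 and 5.49 in wild-type hosts. The 2 lowest arrays were replicates 2 and 3 of Tm1N3 tumours of knockout hosts, and replicate 1 of that group lay within the range of the wild-type hosts. None of the 6 listed markers of myelinating glia was measured, so whether such cells contributed was not tested.

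Siglec15 encodes a receptor that pairs with an activating adaptor and is known from osteoclasts and tumour macrophages. Its log2 level was 5.59, 5.56 and 5.46 in Tm1N3 tumours of knockout hosts and 5.62, 5.56 and 5.65 in Tm1N3 tumours of wild-type hosts. It was 5.57, 5.72 and 5.72 in Tm1G3 tumours of knockout hosts and 5.63, 5.60 and 5.53 in Tm1G3 tumours of wild-type hosts. Replicates 2 and 3 of Tm1G3 tumours of knockout hosts were the highest of all arrays, and replicate 1 of that group lay among the others.

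In the Cd33-related group, Siglece, an inhibitory receptor of mouse neutrophils and macrophages, had log2 levels from 5.09 to 5.31 in Tm1N3 tumours of knockout hosts and from 5.14 to 5.25 in Tm1N3 tumours of wild-type hosts. In Tm1G3 tumours it ranged from 5.15 to 5.40 in knockout hosts and from 5.15 to 5.30 in wild-type hosts. Siglecg, an inhibitory receptor of B cells, had levels from 4.68 to 4.77 and from 4.63 to 4.74 in Tm1N3 tumours of knockout and wild-type hosts, and from 4.50 to 4.74 and from 4.66 to 4.75 in Tm1G3 tumours of knockout and wild-type hosts. For both genes every group overlapped the others, and Tm1G3 tumours of knockout hosts had the widest range (0.249 for Siglece and 0.241 for Siglecg).

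The other Cd33-related genes were dim, with means over 12 arrays below 4.22, the lower quartile of mean level over all probe sets. Cd33, a receptor of myeloid cells, had levels from 3.45 to 3.74 in Tm1N3 tumours of knockout hosts, from 3.51 to 3.74 in Tm1N3 tumours of wild-type hosts, from 3.50 to 3.63 in Tm1G3 tumours of knockout hosts and from 3.34 to 3.72 in Tm1G3 tumours of wild-type hosts. Siglecf, the eosinophil Siglec of mice, had levels from 2.73 to 2.95 and from 2.77 to 2.87 in Tm1N3 tumours of knockout and wild-type hosts, and from 2.82 to 2.91 and from 2.86 to 3.08 in Tm1G3 tumours of knockout and wild-type hosts. Its mean stood at the 4.01 percentile of all probe sets, so these values may lie near background, which could not be examined. Siglech, a receptor of plasmacytoid dendritic cells that signals through an activating adaptor, had levels from 3.61 to 3.96 and from 3.68 to 3.96 in Tm1N3 tumours of knockout and wild-type hosts, and from 3.74 to 3.87 and from 3.56 to 3.90 in Tm1G3 tumours of knockout and wild-type hosts. Siglech had 3 probe sets, and the brightest carries a suffix that marks probes shared with similar sequences.

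**Figure D1:**
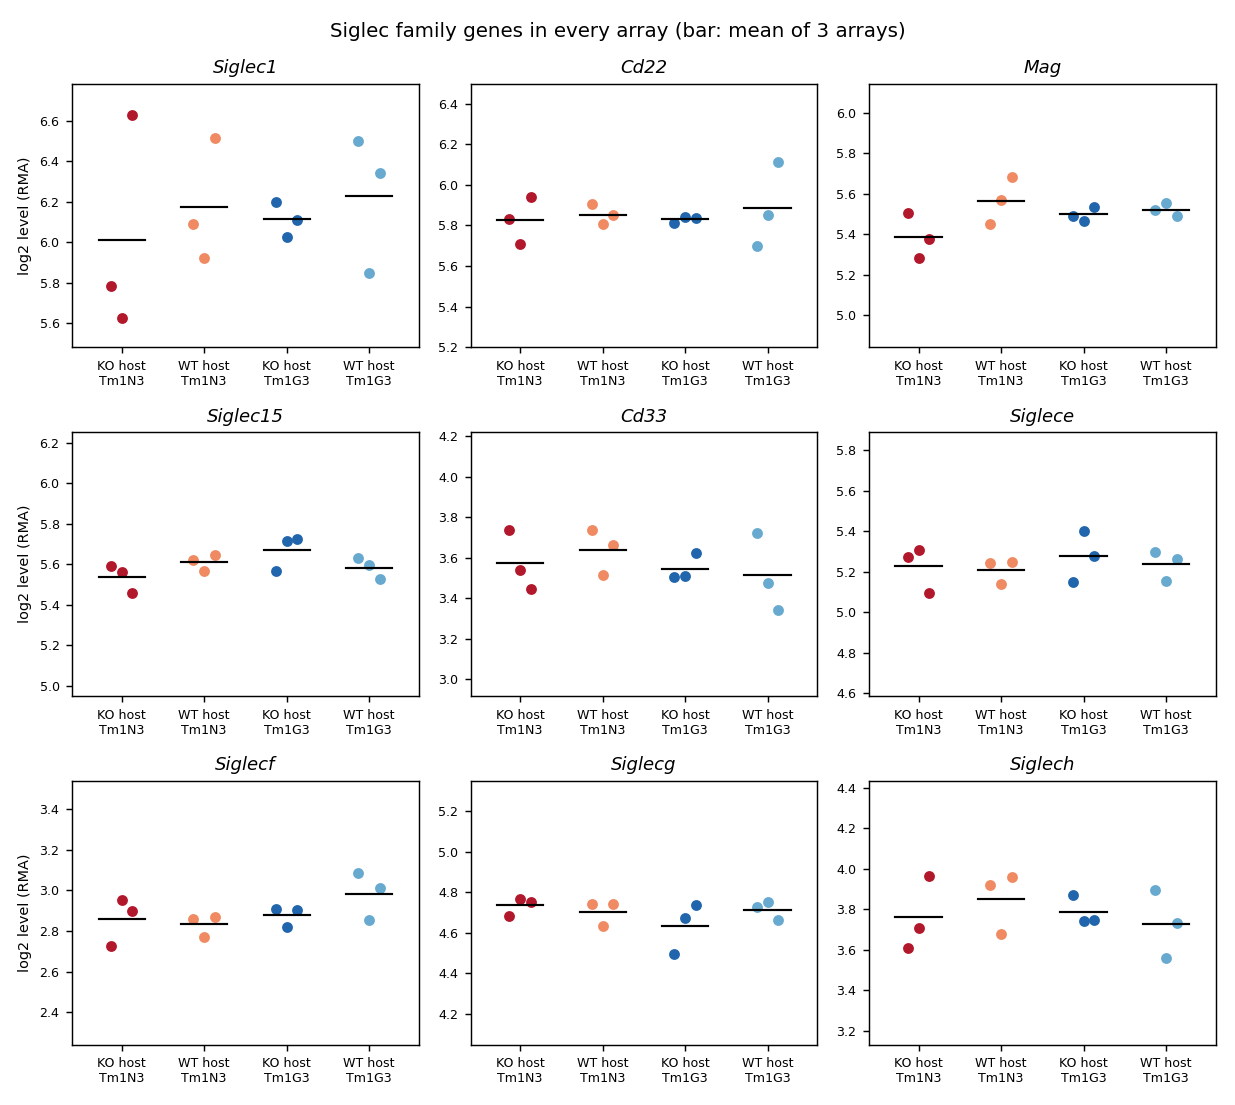
Log2 level (RMA, vertical axis, each panel spanning the same number of log2 units) of the 9 Siglec family genes on every array, with points for the 3 arrays of each group and a bar for their mean. Groups overlap in all panels, and Siglec1 has the widest scatter, from 5.63 to 6.63.

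Spread over the 12 arrays set Siglec1 apart within the family. Its SD was 0.314, larger than that of 89.2% of all probe sets, with a mean at the 59.1 percentile of level. The SD of the other genes ran from 0.0748 (Siglec15) to 0.137 (Siglech), and the family median of 0.0991 lay below the median of 0.129 over all probe sets. Siglec15 and Siglecg stood at the 12.5 and 13.4 percentile of SD. The plot of level against spread shows these positions.

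**Figure D2:**
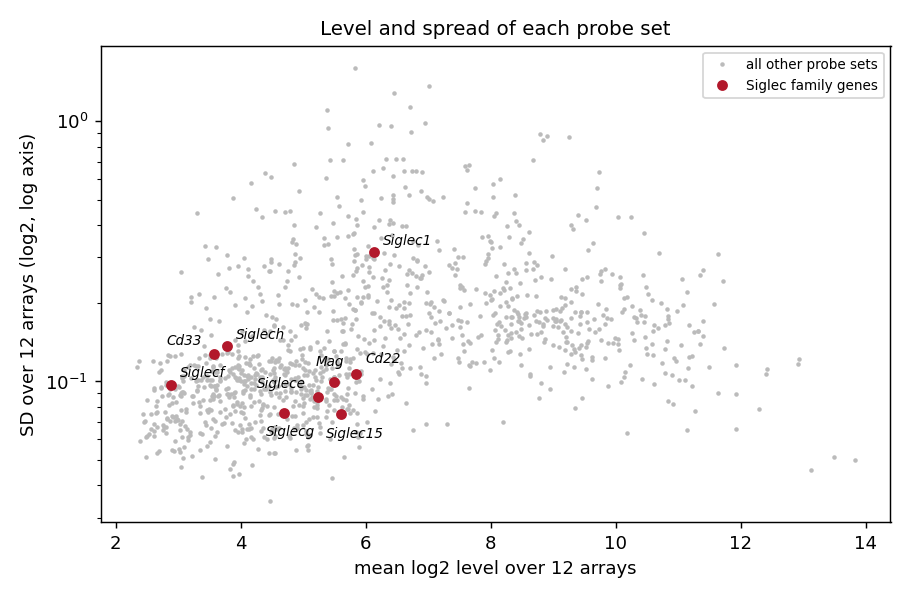
SD over 12 arrays (log axis) against mean log2 level of each probe set, with the 9 Siglec family genes in red and all other probe sets in grey. Siglec1 has an SD of 0.314, larger than that of 89.2% of all probe sets, while Siglec15 has an SD of 0.0748.

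The tumour line comparison asks how tumours of the line labelled galectin-3 expressing differ from those of the line labelled silenced. Averaged over hosts, no Siglec gene was called between Tm1N3 and Tm1G3 tumours. In limma 0 of 9 passed a Benjamini-Hochberg adjusted p of 0.05, where 4.25% of all probe sets passed (53 of 1246). An unadjusted p under 0.05 was reached by 0 of 9 (limma), beside 16.4% of all probe sets. Siglecf had the smallest p, at a log2 difference of -0.08 ± 0.06 (SE; limma, adjusted p = 0.542). Siglec1 averaged -0.08 ± 0.18 with a 95% interval from -0.48 to 0.33, that is, from 0.716-fold to 1.25-fold. The intervals of the other 8 genes lay between -0.21 and 0.25. The family median was -0.03, beside 0.00270 over all probe sets, with 6 of 9 differences negative, as were 49% of all. In 0 of 9 genes did the 6 Tm1N3 arrays lie apart from the 6 Tm1G3 arrays, beside 3.29% of all probe sets.

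Within knockout hosts the line difference was -0.13 ± 0.06 for Siglec15 (SE; limma, unadjusted p = 0.0675, adjusted p = 0.618), -0.11 ± 0.08 for Mag, -0.10 ± 0.26 for Siglec1 and 0.10 ± 0.07 for Siglecg, and the other 5 lay between -0.05 and 0.03. None of the 9 passed in limma, where 0.722% of probe sets passed. None had an unadjusted p under 0.05 (limma), beside 9.47% of probe sets, and none had groups apart, where 13.7% did. Within wild-type hosts it was -0.15 ± 0.08 for Siglecf (limma, unadjusted p = 0.0851, adjusted p = 0.488), 0.12 ± 0.11 for Cd33 and 0.12 ± 0.12 for Siglech, and the other 6 lay between -0.06 and 0.05. Again none of the 9 passed in limma, where 0.883% of probe sets passed. None had an unadjusted p under 0.05 (limma), beside 13.1% of probe sets, and none had groups apart, where 16.9% did.

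The host comparison asks what galectin-3 of the host tissue changes. Averaged over lines, 0 of 9 genes passed and 0 had an unadjusted p under 0.05 in limma, and 0% of all probe sets passed, with 78 of 1246 at an unadjusted p under 0.05. Mag had the smallest p, at -0.10 ± 0.05, knockout minus wild-type (SE; limma, unadjusted p = 0.0872, adjusted p = 0.751). Siglec1 averaged -0.14 ± 0.18 with a 95% interval from -0.54 to 0.26, and the intervals of the other 8 genes lay between -0.22 and 0.17. The family median was -0.02, beside -0.01 over all probe sets, with 7 of 9 differences negative, as were 53.6% of all. In 0 of 9 genes were the 6 knockout arrays apart from the 6 wild-type arrays, beside 0.562% of probe sets.

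In Tm1N3 tumours Mag differed by -0.18 ± 0.08 between hosts (SE; limma, unadjusted p = 0.0385, adjusted p = 1.000). This was the 1 unadjusted p under 0.05 among the 9 genes, each at its brightest probe set, in any comparison, it did not pass, and its groups overlapped at replicate 1 of each host. Siglec1 was at -0.16 ± 0.26 and Siglech at -0.09 ± 0.12. In Tm1N3 tumours 0 of 9 genes passed, as did 0% of probe sets (limma, 54 at an unadjusted p under 0.05), and none had groups apart, where 7.62% of probe sets did. In Tm1G3 tumours the host differences were -0.12 ± 0.26 for Siglec1, -0.11 ± 0.08 for Siglecf and 0.08 ± 0.06 for Siglec15 (limma, adjusted p from 0.845 to 0.932). There 0 of 9 passed and 0 had an unadjusted p under 0.05, as 0% of probe sets passed (limma, 77 at an unadjusted p under 0.05), and none had groups apart, where 12.4% did.

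**Figure D3:**
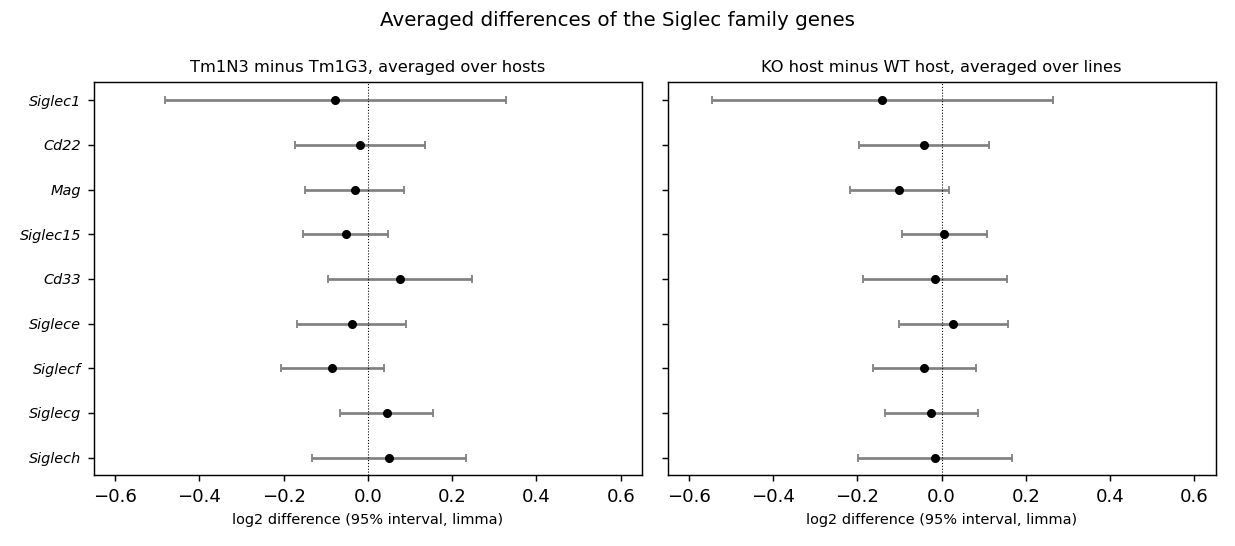
Log2 differences of the 9 Siglec family genes with 95% intervals from limma, Tm1N3 minus Tm1G3 averaged over hosts (left) and knockout minus wild-type host averaged over lines (right). Every interval includes 0, and those of Siglec1 are the widest, from -0.48 to 0.33 for the line and from -0.54 to 0.26 for the host.

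The interaction, the line difference in knockout hosts minus that in wild-type hosts, was -0.16 ± 0.09 for Siglec15, -0.15 ± 0.11 for Mag and -0.15 ± 0.16 for Siglech (SE; limma, adjusted p = 0.996 each). None of the 9 genes passed or had an unadjusted p under 0.05, as 0% of probe sets passed (limma, 35 at an unadjusted p under 0.05). The dimmest of the Siglech probe sets, at a mean of 2.44, gave another picture from the brightest: in Tm1G3 tumours its 3 knockout arrays lay above the 3 wild-type arrays (0.15 ± 0.06; limma, unadjusted p = 0.0281, adjusted p = 0.752), and in knockout hosts its Tm1N3 arrays lay below its Tm1G3 arrays (-0.12 ± 0.06, adjusted p = 0.633). Its interaction was -0.20 ± 0.08 (95% interval from -0.38 to -0.01; limma, unadjusted p = 0.0373, adjusted p = 0.996). It did not pass in any of these, and the remaining probe set, at a mean of 2.95, overlapped in both comparisons (-0.06 ± 0.09 and 0.03 ± 0.09).

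Siglec1 moved with genes of monocytes and macrophages from tumour to tumour. Over the 12 arrays its closest matches among the 908 other named genes were Ccr2, the receptor that draws monocytes into tissue (r = 0.946, Spearman's rho = 0.972), Ugt1a6b, a glucuronosyltransferase gene (r = 0.938, rho = 0.937), and Csf2rb2, a receptor chain for interleukin-3 in mice (r = 0.936, rho = 0.930). The permutation p was 1e-05 for Ccr2 and Csf2rb2, the smallest that 100000 resamples can give, and 2e-05 for Ugt1a6b, with a Benjamini-Hochberg adjusted p of 0.00454 for each over 908 genes. Without the 2 arrays farthest from the Siglec1 median, replicates 2 and 3 of Tm1N3 tumours of knockout hosts, r was 0.930, 0.935 and 0.954 for Ccr2, Ugt1a6b and Csf2rb2. Taken as deviations from group means, r was 0.950, 0.938 and 0.945. Ugt1a6b was read by a probe set whose suffix marks probes shared between transcripts.

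Ccr2 had log2 levels of 5.53, 5.73 and 7.43 in Tm1N3 tumours of knockout hosts, 6.15, 6.09 and 6.98 in Tm1N3 tumours grown in wild-type hosts, 6.90, 6.04 and 6.52 in Tm1G3 tumours of knockout hosts and 7.31, 5.97 and 6.65 in Tm1G3 tumours of wild-type hosts. Replicate 3 of both Tm1N3 groups and replicate 1 of both Tm1G3 groups were the highest of their groups for Ccr2, and the same arrays were the highest for Siglec1. Arrays with the same replicate number also deviated together over all probe sets within a line. Differently numbered arrays were not compared, so whether the number marks pairing was not tested. The 12 arrays may not be fully independent, and these p-values may be too small.

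In all, 53 of 908 genes correlated with Siglec1 past an adjusted permutation p of 0.05 (5.84%), 43 positively and 10 negatively, and 62 by Spearman's rho. Of 14 listed macrophage and monocyte markers 7 were measured, and 4 of the 7 were among them: Ccr2, Csf1r, the receptor for macrophage colony-stimulating factor (r = 0.924, rho = 0.895, permutation p = 3e-05, adjusted p = 0.00454), Adgre1, which encodes the macrophage antigen F4/80 (r = 0.875, rho = 0.909, permutation p = 0.0001, adjusted p = 0.00825), and the mannose receptor gene Mrc1 (r = 0.800, rho = 0.846, permutation p = 0.00168, adjusted p = 0.0332). Without the 2 farthest arrays these were 0.944, 0.878 and 0.702 for Csf1r, Adgre1 and Mrc1. Clec10a (r = 0.656), Cx3cr1 (r = 0.595) and Mgl2 (r = 0.212) did not pass, and the median r of the list was 0.800. In the other cell type lists 0 genes passed by r. Median r was 0.581 for neutrophil, 0.249 for T and NK cell, 0.128 for dendritic cell, -0.24 for eosinophil and -0.41 for B cell genes. Klrd1 of the T and NK cell list passed by rho alone (r = 0.746, adjusted permutation p = 0.0721, rho = 0.825, adjusted permutation p = 0.0332). The count of 53 is sensitive to single arrays: it was 21 without Tm1N3 replicate 3 of knockout hosts, 29 without Tm1N3 replicate 1 of knockout hosts and 31 without Tm1N3 replicate 3 of wild-type hosts. It was 6 after quantile normalising the deposited values again, when Ccr2, Ugt1a6b and Csf1r still passed and Csf2rb2, Adgre1 and Mrc1 did not (adjusted permutation p = 0.0540, 0.0540 and 0.0832). Mrc1 also missed the threshold on omission of any of 7 of the 12 arrays.

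The mean log2 level of the 7 macrophage and monocyte markers ran from 5.87 to 7.40 in Tm1N3 tumours of knockout hosts, from 6.29 to 7.12 in Tm1N3 tumours of wild-type hosts, from 6.58 to 7.12 in Tm1G3 tumours of knockout hosts and from 6.40 to 7.23 in Tm1G3 tumours of wild-type hosts. These groups overlapped as Siglec1 did. Averaged over hosts, 0 of the 7 passed in limma. An unadjusted p under 0.05 was reached by 0 of the 7 (limma), beside 16.4% of all probe sets. Of the 7 line differences 6 were negative, with a median of -0.33 against -0.00337 over all named genes. Cx3cr1 was at -0.53 ± 0.24 and Adgre1 at -0.54 ± 0.43 (SE, limma, adjusted p = 0.320 and 0.650, unadjusted p = 0.0552 and 0.245).

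**Figure D4:**
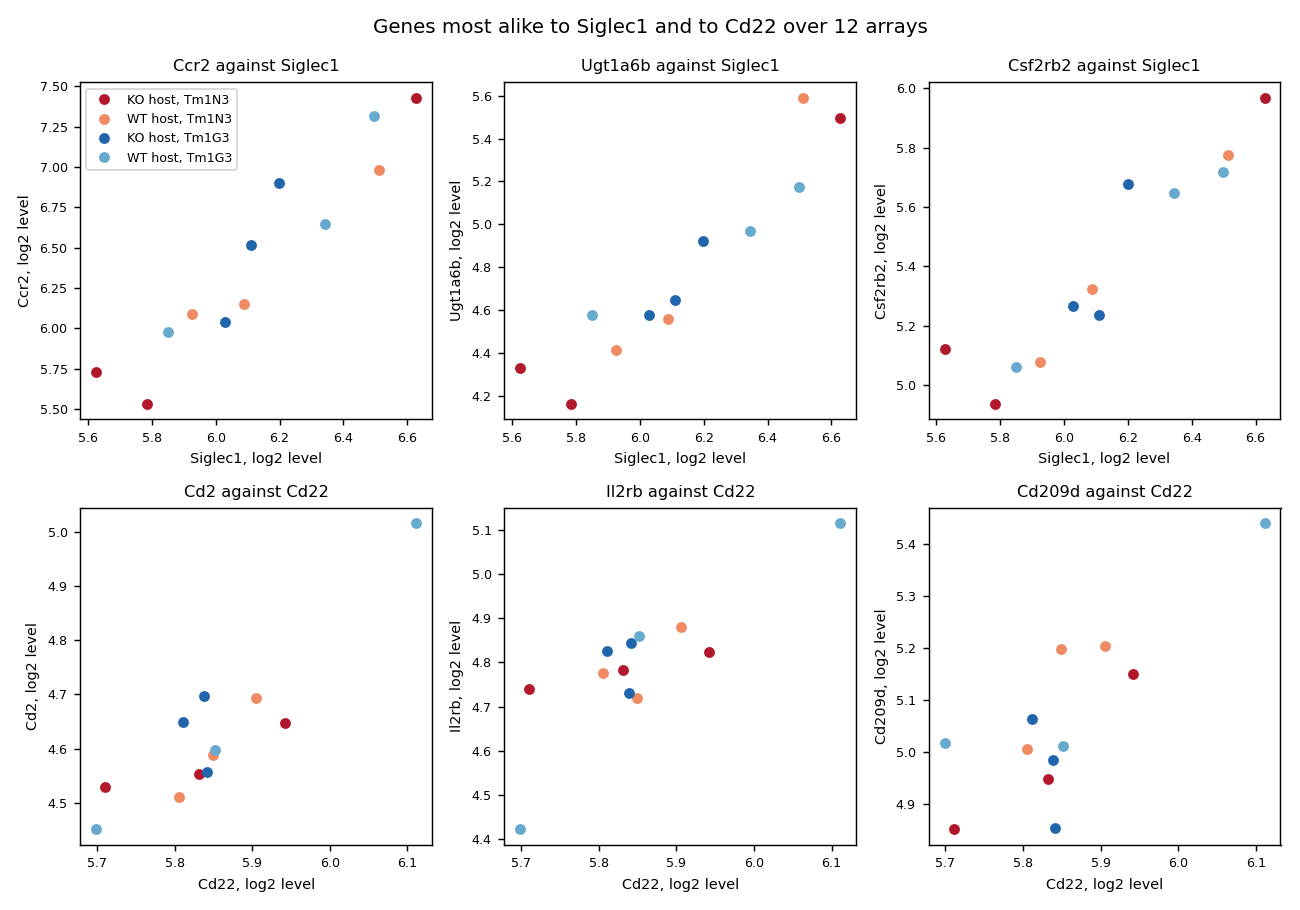
Log2 level of the 3 genes most alike to Siglec1 (top) and to Cd22 (bottom) against the level of that gene on each of the 12 arrays, coloured by group. The Siglec1 pairs form a line through all groups (r from 0.936 to 0.946), while the Cd22 pairs are stretched by the lowest and the highest Cd22 array.

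Siglec1 also followed the main pattern of variation among the tumours. The leading principal component of the 1235 probe sets outside the family held 37.1% of their variance, and its correlation with Siglec1 over the 12 arrays was 0.898, larger in size than that of 98.2% of those probe sets. The component shares the arrays with Siglec1, and no p is given. Its scores were -8.32, -4.39 and 7.34 in Tm1N3 tumours of knockout hosts, -2.16, -4.50 and 3.73 in Tm1N3 tumours grown in wild-type hosts, 4.38, -0.99 and -1.62 in Tm1G3 tumours of knockout hosts and 8.47, -3.09 and 1.13 in Tm1G3 tumours of wild-type hosts, so every group held both signs. Siglech (r = 0.784) and the dim Siglecf (r = 0.672) followed it too, larger in size than 94.1% and 87.0% of those probe sets. For Siglech this differed by probe set (r = 0.728 with the middle and -0.06 with the dimmest). The other 6 genes had r between -0.21 and 0.07.

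Correlations between members of the family were mostly weak. Over the 36 pairs of genes r ran from -0.53 (Cd22 with Cd33) to 0.793 (Siglec1 with Siglech) with a median of 0.03, and 2 pairs were above 0.5, the other being Siglec15 with Siglece (r = 0.668). That is 5.56% of the pairs, beside 10.1% of the 412686 pairs of all named genes, whose median r was 0.00191. Siglec1 and Siglech passed narrowly on the deposited values (rho = 0.832, permutation p = 0.00263, adjusted p = 0.0459, r = 0.797 without the 2 farthest arrays). They no longer passed with each array centred on its median (r = 0.712, adjusted permutation p = 0.0880) or after quantile normalising again (r = 0.667, adjusted p = 0.171), nor did they when any of 9 of the 12 arrays was omitted. With the other Siglech probe sets r was 0.665 for the middle one and -0.06 for the dimmest.

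Cd22 had no such company. Its closest matches were Cd2, an adhesion receptor of T and NK cells (r = 0.901, rho = 0.741), Il2rb, a receptor chain for interleukin-2 and interleukin-15 (r = 0.842, rho = 0.678), and the C-type lectin gene Cd209d (r = 0.806, rho = 0.622), with permutation p of 0.00049, 0.00298 and 0.00285 for Cd2, Il2rb and Cd209d. After adjustment over 908 genes 0% passed (adjusted permutation p = 0.222, 0.477 and 0.477, with 72 genes at an unadjusted permutation p under 0.05). Without replicates 1 and 3 of Tm1G3 tumours of wild-type hosts, the 2 arrays farthest from the median, r fell to 0.597, 0.512 and 0.687 for Cd2, Il2rb and Cd209d. Of 9 listed B cell markers 2 were measured, Fcer2a and Cxcr5, and their r with Cd22 lay between -0.34 and -0.04. Their mean level ran from 4.17 to 4.34 in Tm1N3 tumours of knockout hosts, from 4.21 to 4.26 in Tm1N3 tumours of wild-type hosts, from 4.26 to 4.31 in Tm1G3 tumours of knockout hosts and from 4.24 to 4.27 in Tm1G3 tumours of wild-type hosts.

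Markers of the other cell types in which Siglecs are known were mostly unmeasured or did not pass in the averaged line comparison (limma). In that comparison 4.25% of all probe sets passed. Among the eosinophil, neutrophil, dendritic and B cell genes 0 had an unadjusted p under 0.05 (limma), beside 16.4% of all probe sets. Of 6 eosinophil markers 3 were measured, Ccr3, Il5ra and Prg2, beside the dim Siglecf, and 0 passed, with Il5ra at 0.08 ± 0.04 and Prg2 at 0.02 ± 0.05 (SE, limma). Of 10 neutrophil markers 4 were measured and 0 passed, with Csf3r at -0.20 ± 0.24. Of 10 dendritic cell markers 7 were measured and 0 passed, with Ly75 at -0.12 ± 0.07 and Clec4a2 at 0.06 ± 0.04. Of 12 T and NK cell markers 4 were measured and 1 passed: the chemokine gene Ccl5 fell in Tm1N3 tumours (-0.65 ± 0.12; limma, adjusted p = 0.0113). The B cell genes Cxcr5 and Fcer2a were at -0.05 ± 0.04 and 0.01 ± 0.05. Both measured melanocyte markers passed, beside 4.25% of all probe sets: Kit, the stem cell factor receptor, fell by 0.99 on the log2 scale and Mcam, an adhesion molecule of melanoma cells, rose by 0.66 in Tm1N3 tumours (limma, adjusted p = 0.00379 and 0.0336). The Kit difference was -1.55 ± 0.21 in knockout hosts (SE; limma, adjusted p = 0.00635). In wild-type hosts it was -0.44 ± 0.21 and did not pass (limma, adjusted p = 0.428). Mcam passed in neither host alone (limma, adjusted p = 0.367 in knockout and 0.127 in wild-type hosts).

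The genes that make and remove the ligand of Siglecs were measured more fully. Of 20 sialyltransferase genes 19 were measured, and in the averaged line comparison 0 rose, 2 fell and 17 did not pass, with a median of -0.04, where 4.25% of all probe sets passed. St6galnac6, which sialylates glycolipids and glycoproteins, fell by 0.36 and St3gal3, which caps terminal galactose, fell by 0.41 on the log2 scale (limma, adjusted p = 0.00605 and 0.0235). St6gal1, which makes the sialic acid linkage that CD22 binds, was at -0.47 ± 0.12 and did not pass (SE; limma, adjusted p = 0.0552), and it is named here after its value was seen. In wild-type hosts St6galnac6 was the 1 of 19 that fell (-0.42 ± 0.08, limma, adjusted p = 0.0484), where 0.883% of all probe sets passed. In knockout hosts 0 of 19 passed (limma), where 0.722% of all did. There 3 of 19 had an unadjusted p under 0.05 (limma), beside 9.47% of all probe sets.

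Of 14 genes for sialic acid synthesis, transport and removal 10 were measured and 0 passed in the averaged line comparison, 5 positive and 5 negative. An unadjusted p under 0.05 was reached by 4 of the 10 (limma), beside 16.4% of all probe sets. Gne, which starts sialic acid synthesis, was at -0.29 ± 0.08 and the lysosomal sialidase gene Neu1 at 0.21 ± 0.08 (SE; limma, adjusted p = 0.0598 and 0.171). Neu3, the sialidase of the plasma membrane, was the 1 of these 10 that correlated with Siglec1, in the opposite direction (r = -0.911, rho = -0.895, permutation p = 9e-05, adjusted p = 0.00817, r = -0.853 without the 2 farthest arrays). Its mean log2 level of 3.58 lay below the lower quartile of all probe sets, as did those of the dim Siglecs. Of 16 listed signalling partners and ligand carriers 2 were measured. Podxl2, a sialomucin that carries glycan ligands of selectins, rose in Tm1N3 tumours (0.66 ± 0.13; limma, adjusted p = 0.0211), and the mucin gene Muc1 did not pass (-0.04 ± 0.05). In the host comparisons and the interaction 0 of the 60 measured genes of all 11 lists passed in limma, as 0% of all probe sets did, with 3 of the 60 at an unadjusted p under 0.05 in the averaged host comparison.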

How the data were processed

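RNA was extracted with Trizol and labelled as biotinylated cRNA by an Affymetrix protocol, per the labels' protocols, and the deposited values are log2 levels made by the authors with RMA (background correction, quantile normalisation and probe summary), per the submitters' processing notes, which give no version. No source used here names the build of the array. No scanner files were used, so signal over background could not be examined. Probe sets were named through a RefSeq table of assembly GRCm38.p6 by the accession in their names, and 963 of 1246 matched 1 symbol. No 2 arrays held identical values.

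Means of 4 groups were fitted to all 12 arrays with limma 3.58.1 in R 4.3.3, with 8 residual and 2.39 prior degrees of freedom, and p-values were adjusted over 1246 probe sets at a threshold of 0.05. Correlations over the arrays used Python 3.11.15 and scipy 1.17.1 with 100000 permutations of the arrays, two-sided, and were adjusted over 908 genes. The procedure was tested on simulated data. Named genes were all family members, Lgals3, the 3 genes most correlated with each of the 2 brightest members, and list members that passed or had the smallest p. 1 list member is not reported here. The members and lists were chosen with earlier results of these data known.

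Replicate numbers are shared between groups in the labels, and within each group they follow the order of the numbers that start the titles. Same-numbered arrays deviated together between hosts within a line (r from 0.184 to 0.752 in Tm1N3 and from 0.249 to 0.308 in Tm1G3 tumours). The labels give the number no meaning, and the main fits, with their p-values and intervals, used no pairing. Replicate blocks entered only among the alternatives. Between lines, same-numbered arrays had r of -0.660, 0.273 and -0.418 in knockout hosts and 0.00809, 0.544 and 0.269 in wild-type hosts, for replicates 1 to 3. These r had both signs in knockout hosts and were positive but uneven in wild-type hosts. Differently numbered arrays were not compared, so whether the number carries a shared pattern, within or between lines, was not tested. Alternatives were another quantile normalisation, median centring, a filter on dim probe sets, an intensity trend in the prior variance, both replicate blocks, single arrays left out, fits of 6 arrays and other probe sets.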

Additional observations from a re-analysis of the deposited data

How the results depend on the processing

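No Siglec family gene passed in any comparison under any alternative run (limma, smallest adjusted p = 0.323 over 1149 fits of a member). Of 604 alternative values of the 33 differences followed, 572 kept their sign. The 32 sign changes concerned small, unpassed differences, the largest being 0.0932 in size after the change. With a replicate block within a line, 40 probe sets passed in the averaged line comparison, 6 in knockout and 15 in wild-type hosts, and the block changed no call of a family gene. Fitting only the 6 arrays compared gave 4 probe sets past the threshold for the line difference in knockout hosts and 3 in wild-type hosts, and median centring gave 6 in wild-type hosts. Leaving out 1 array gave 32 to 63 probe sets for the averaged line difference (32 without Tm1G3 replicate 2 of knockout hosts), 5 to 13 in knockout hosts and 2 to 21 in wild-type hosts (2 without Tm1G3 replicate 3 of wild-type hosts, 21 without Tm1N3 replicate 3 of knockout hosts). Quantile normalising again left 6 genes correlated with Siglec1 and gave 1 with Cd22, and leaving out 1 array gave 21 to 71 with Siglec1. The causes were not tested.

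Averaged line differences that turned were Cd22 at 0.00595 after quantile normalising and Siglech at -0.0189 with its dimmest probe set. With 1 array left out they ran from -0.0652 to 0.0379 for Cd22, from -0.232 to 0.0190 for Siglec1 and from -0.00146 to 0.0926 for Siglech. Averaged host differences that turned were Cd33 at 0.0181 after quantile normalising and 0.00338 after centring, and Siglech at 0.00780 after quantile normalising, 0.00214 after centring and 0.0509 with its dimmest probe set. With 1 array left out they ran from -0.0883 to 0.0148 for Cd22, from -0.0582 to 0.0371 for Cd33, from -0.00851 to 0.0319 for Siglec15, from -0.00297 to 0.0612 for Siglece, from -0.0498 to 0.0105 for Siglecg and from -0.0670 to 0.0257 for Siglech. Siglec1 ran from -0.408 to 0.0932 for the line difference in knockout hosts, from -0.471 to 0.0305 for the host difference in Tm1N3 and from -0.308 to 0.0155 in Tm1G3 tumours. The Siglech interaction turned to 0.0108 with its middle probe set.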
